A study of Rattus norvegicus with 6 samples.

Results

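The genes described here are the 4 class I histone deacetylases of the rat, Hdac1, Hdac2, Hdac3 and Hdac8, and 6 genes for proteins that build the corepressor complexes in which these enzymes work: the histone chaperones Rbbp4 and Rbbp7, the scaffolds Mta1 and Mta2, the remodelling ATPase Chd4 and the scaffold Sin3a. They were taken by symbol from the deposited gene table, in which all 10 symbols matched 1 row each of 24360 rows, and their 27 transcripts were taken by source gene from 44501 transcript rows. The members were chosen by name and function, but with the fold changes of this same comparison, Rb2 against Ctrl, already in view, among them that of Hdac2. Fold changes and calls of the 10 genes are therefore given as a description of these samples, and no test of the list as a whole was made.

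RNA came from H9c2, a myoblast line derived from embryonic rat heart, in 3 samples given ginsenoside Rb2, a saponin of ginseng (Rb2), and 3 samples whose treatment is labelled NC (Ctrl). Genotype is given as WT for all 6, and all are of the same line. One protocol text is attached to every sample, with Rb2 for 48 h, then 4 to 6 h without oxygen and glucose, then 12 h with both restored, and whether the Ctrl cultures went through the deprivation is not stated. Since the labels do not state whether the 3 replicates are independent cultures, the p-values cover the variation among these libraries and no more, and part of it could be technical. In gene counts Rb2 replicates 2 and 3 were the closest pair, with a chi-square per degree of freedom of 1.71. The other pairs within a group lay between 4.02 and 17.2. Whether replicates 2 and 3 of Rb2 are independent cultures was not tested. The title concerns acetylation of a splicing factor and names Sirt7, a deacetylase of another class.

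Class I deacetylases remove acetyl groups from lysines of histones and other proteins through a zinc-dependent active site in the nucleus, and acetyl loss from histone tails is generally tied to repressed transcription. Hdac1 and Hdac2 are close paralogs that sit together in the NuRD, Sin3 and CoREST complexes, whereas Hdac3 works in the NCoR and SMRT complexes and Hdac8 acts largely outside these assemblies, with the cohesin subunit Smc3 as a known substrate. In heart muscle of mice, Hdac1 and Hdac2 act redundantly, and Hdac2 has been tied to hypertrophic growth.

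Total counts ran from 5193077 to 5570308 in the 3 Rb2 samples and from 5787587 to 8793390 in the 3 Ctrl samples. CPM is the count scaled to a common library total, and CPM values of genes also carry the TMM factor of each sample. A gene at 0 could hold up to 3 counts, which on the plain totals is between 0.539 and 0.578 CPM in Rb2 and between 0.341 and 0.518 CPM in Ctrl, and this limit covers counting error alone. On the first principal component, which held 42.3% of the variance of log2 CPM, the Rb2 samples lay between 18.1 and 23.8 and the Ctrl samples between -47.0 and 0.56, with Ctrl replicate 1 at the far end. Weighted by counts, transcripts averaged 1250 ± 5.79 bases in Rb2 and 1191 ± 31.8 bases in Ctrl (SD, n = 3 each). The cells are labelled as embryonic cardiomyocytes. Of 8 cardiac muscle markers with a row only Tnnt2, Nkx2-5 and Gata4 passed the filter on low counts, and Actc1 was at 0 in every sample. Of 6 skeletal muscle markers with a row, among them Myog and Myod1, 4 passed it. The summed level of the 8 cardiac markers was 54.8 to 64.0 CPM in Rb2 and 56.6 to 75.2 CPM in Ctrl. That of the 6 skeletal muscle markers was 41.1 to 46.0 CPM in Rb2 and 34.2 to 44.6 CPM in Ctrl. The lists differ in size and the sums are not scaled by length, so the lists are not ranked against each other. The 7 fibroblast markers, with Dcn at 0, summed to 3350 to 3756 CPM in Rb2 and 2781 to 3739 CPM in Ctrl. The 4 epithelial markers, 3 of them at 0, summed to 33.9 to 39.9 CPM in Rb2 and 32.2 to 41.9 CPM in Ctrl. The sum of 3 leukocyte markers, with Ptprc at 0, was 0.52 to 2.39 CPM in Rb2 and 0.904 to 1.92 CPM in Ctrl. Of 11551 genes tested with edgeR, 312 (2.7%) were called at an adjusted p under 0.05, of which 219 (1.9%) were higher in Rb2 and 93 (0.805%) lower. The count was 39, 3 and 11 without Rb2 replicate 1, 2 or 3, and 896, 15 and 644 without Ctrl replicate 1, 2 or 3.

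To show the sequence around the starts of Hdac1, Hdac2, Rbbp4 and Rbbp7, the 4 members in which every Rb2 sample lay above every Ctrl sample, the RefSeq promoter windows of rat assembly GRCr8, from 250 bases before to 50 bases after the annotated start, are given 5′ to 3′ with matches to the CCAAT box (CCAAT or its reverse complement ATTGG) and the GC box (GGGCGG or CCGCCC) in capitals. All 10 members had a window in that table. The windows are Hdac2 (chr20:42102877-42103176, plus strand), Hdac1 (chr5:147165338-147165637, minus strand), Rbbp4 (chr5:146959452-146959751, minus strand) and Rbbp7 (chrX:35562981-35563280, minus strand).
Hdac2: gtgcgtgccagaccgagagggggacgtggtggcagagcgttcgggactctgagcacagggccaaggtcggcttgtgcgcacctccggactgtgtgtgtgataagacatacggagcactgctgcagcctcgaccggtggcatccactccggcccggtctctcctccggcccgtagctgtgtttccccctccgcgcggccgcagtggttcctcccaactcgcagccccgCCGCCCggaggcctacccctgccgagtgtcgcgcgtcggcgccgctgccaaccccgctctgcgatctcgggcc
Hdac1: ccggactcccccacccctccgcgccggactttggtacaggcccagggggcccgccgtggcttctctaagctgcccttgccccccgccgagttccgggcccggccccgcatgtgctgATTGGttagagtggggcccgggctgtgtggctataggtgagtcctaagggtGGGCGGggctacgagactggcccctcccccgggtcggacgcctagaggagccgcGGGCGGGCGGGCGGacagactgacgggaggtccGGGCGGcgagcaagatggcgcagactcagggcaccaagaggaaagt
Rbbp4: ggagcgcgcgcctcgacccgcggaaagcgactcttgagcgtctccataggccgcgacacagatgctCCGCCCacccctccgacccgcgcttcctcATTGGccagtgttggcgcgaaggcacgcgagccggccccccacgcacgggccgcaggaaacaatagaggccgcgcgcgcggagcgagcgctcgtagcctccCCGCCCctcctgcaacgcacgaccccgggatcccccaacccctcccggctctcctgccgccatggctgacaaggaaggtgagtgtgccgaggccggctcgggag
Rbbp7: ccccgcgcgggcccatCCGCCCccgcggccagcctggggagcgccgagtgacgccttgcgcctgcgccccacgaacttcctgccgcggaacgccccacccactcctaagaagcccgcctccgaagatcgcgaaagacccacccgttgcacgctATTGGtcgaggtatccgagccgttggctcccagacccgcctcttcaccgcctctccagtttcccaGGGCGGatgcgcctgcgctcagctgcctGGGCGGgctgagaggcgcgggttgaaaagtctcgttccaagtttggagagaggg
All of these windows are rich in G and C, at 70% in Hdac2, 71% in Hdac1, 71.7% in Rbbp4 and 68.7% in Rbbp7. Counting both strands and overlapping matches, the GC box was found 1 time in Hdac2, 5 times in Hdac1, 2 times in Rbbp4 and 3 times in Rbbp7. The CCAAT box was found 1 time each in Hdac1, Rbbp4 and Rbbp7 and not in Hdac2. Over all 33469 windows of that table, 33.1% held a GC box, 37.5% a CCAAT box and 14.2% the letters TATAAA or TTTATA, which none of these 4 windows holds. The GC box was also found in members whose groups overlapped, 3 times each in Chd4, Hdac3 and Mta2. It was found 6 times in Mta1, 2 times in Sin3a and not in Hdac8. The share of G and C in those windows ran from 64.0% in Sin3a to 85.3% in Mta1, with Hdac8 apart at 41.3%. The CCAAT box was found 1 time each in Chd4 and Sin3a. Such letters are thus not particular to the 4 members shown. These matches describe the letters of the windows and were not tied to any value here.

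Hdac2 (ENSRNOG00000000604) was the member with the largest fold change and the only one called, as higher in Rb2, where 1.9% of all genes tested were called higher. It had 30.3, 35.4 and 53.5 CPM in the Rb2 samples, against 22.0, 19.2 and 15.9 CPM in the Ctrl samples. Every Rb2 sample lay above every Ctrl sample, and Rb2 replicate 3 stood well above the other two. The means were 39.7 ± 12.2 CPM in Rb2 and 19.0 ± 3.03 CPM in Ctrl (SD, n = 3 each). Hdac2 was thus 2.08-fold higher in Rb2, with a log2 fold change of 1.06 (SE 0.23) and an adjusted p of 0.0464 in edgeR. These levels come from 91 to 291 counts per sample. The coefficient of variation of Hdac2 was 30.8% in Rb2 and 16.0% in Ctrl. Counting alone would give about 7.58% at its mean count over the 6 samples. In a culture, more cells with the transcript and more transcript per cell cannot be told apart. Without Rb2 replicate 3 the log2 fold change of Hdac2 was 0.78 (edgeR adjusted p = 0.171), and over all 6 fits that left out 1 sample it ran from 0.78 to 1.22, each time with an adjusted p above 0.05, from 0.0668 to 0.188. With an offset for gene length in each library it was 0.95 (edgeR adjusted p = 0.0712).

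The other 3 class I deacetylases were not called. Hdac1, the paralog of Hdac2, had 67.3, 66.4 and 60.9 CPM in Rb2 and 48.2, 60.4 and 59.6 CPM in Ctrl. Its groups did not overlap, but the lowest Rb2 sample and the highest Ctrl sample were nearly level, and Ctrl replicate 1 lay apart below. Its log2 fold change was 0.21 (SE 0.13, edgeR adjusted p = 0.378). Hdac3, the catalytic subunit of the NCoR and SMRT complexes, had 45.0, 44.4 and 43.4 CPM in Rb2 and 31.3, 46.5 and 47.7 CPM in Ctrl. The 3 Rb2 values lay inside the Ctrl range, which was set by the low value of Ctrl replicate 1. Its log2 fold change was 0.088 (SE 0.17), and -0.071 without that sample. Hdac8 had 13.2, 14.0 and 11.8 CPM in Rb2 and 10.3, 13.9 and 11.7 CPM in Ctrl, with overlapping groups and a log2 fold change of 0.12 (SE 0.19).

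**Figure D1:**
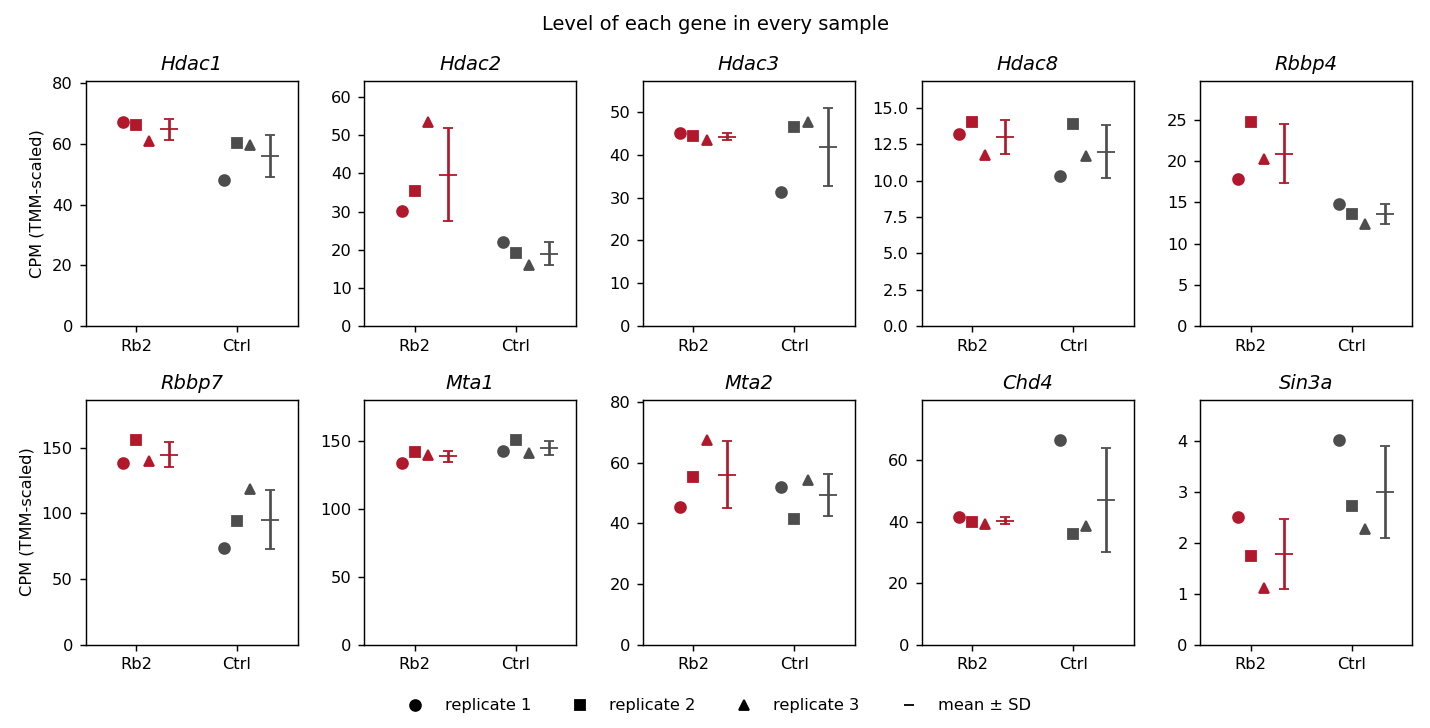
Level of each of the 10 genes in CPM scaled by TMM (y axis, from 0) in every Rb2 (red) and Ctrl (grey) sample. Symbols mark the replicate number and bars the mean ± SD of 3 samples. In Hdac1, Hdac2, Rbbp4 and Rbbp7 the lowest Rb2 sample lies above the highest Ctrl sample, and in Chd4 and Hdac3 Ctrl replicate 1 lies apart from the other samples.

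Per length, Hdac1 was the most abundant class I deacetylase in every sample. Divided by the deposited gene length, the level of Hdac1 averaged 32.3 CPM per kb in Rb2 and 27.9 CPM per kb in Ctrl. Hdac3 averaged 20.0 CPM per kb in Rb2 and 18.9 CPM per kb in Ctrl, and Hdac8 5.78 CPM per kb in Rb2 and 5.33 CPM per kb in Ctrl. Hdac8 was the least abundant of the 4 in both groups. Hdac2 averaged 18.2 CPM per kb in Rb2 and 8.73 CPM per kb in Ctrl. Hdac2 thus stood below Hdac3 without overlap in Ctrl, whereas in Rb2 the ranges of Hdac2 and Hdac3 overlapped, since Rb2 replicate 3 had more Hdac2 than Hdac3 per length. The summed level of the 4 genes was 76.3 ± 3.15 CPM per kb in Rb2 and 60.8 ± 7.07 CPM per kb in Ctrl (SD, n = 3 each). Of that sum Hdac2 made up 18.9, 21.5 and 30.8% in the Rb2 samples and 19.1, 13.3 and 11.5% in the Ctrl samples, so that Rb2 replicate 1 lay just below Ctrl replicate 1. The mean share of Hdac2 was 23.7% ± 6.28 in Rb2 and 14.6% ± 3.99 in Ctrl, while that of Hdac1 was 42.4% ± 3.92 in Rb2 and 45.8% ± 0.62 in Ctrl. The 2 groups overlapped in the balance of the paralogs, since the ratio of Hdac2 to Hdac1 per length was 0.415, 0.492 and 0.811 in the Rb2 samples and 0.421, 0.293 and 0.246 in the Ctrl samples. Reads shared by these close paralogs could be divided between them, and the labels do not state the rules of the counting.

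**Figure D2:**
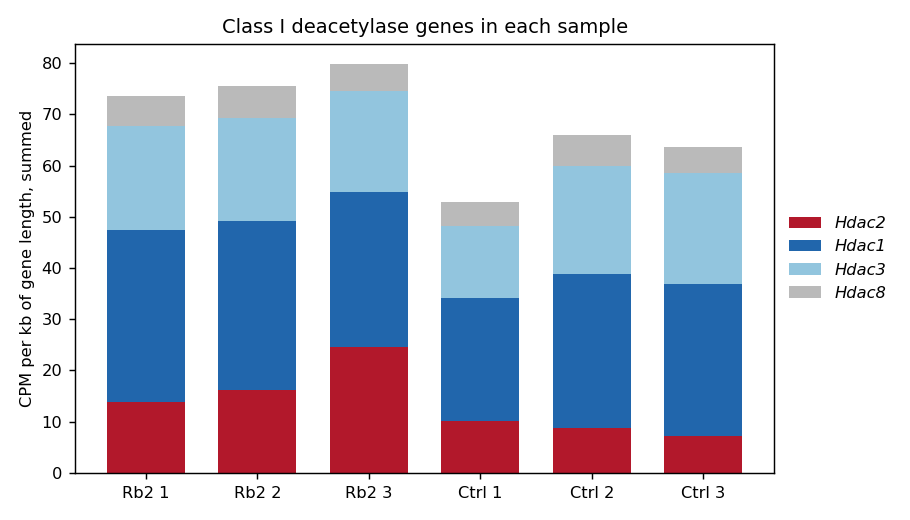
Level of the 4 class I deacetylase genes in CPM per kb of gene length, stacked by gene, in each Rb2 and Ctrl sample. The Hdac2 segment is largest in Rb2 replicate 3, and the whole stack is lowest in Ctrl replicate 1.

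Rbbp4 and Rbbp7, the paired WD40 proteins that bind histones H3 and H4 and are shared by NuRD, Sin3 and several other chromatin complexes, were both about 1.5-fold higher in Rb2 but were not called. Rbbp4 had 17.8, 24.8 and 20.2 CPM in Rb2 and 14.8, 13.6 and 12.4 CPM in Ctrl. Rbbp7 had 139, 156 and 140 CPM in Rb2 and 73.7, 94.0 and 118 CPM in Ctrl. In both genes every Rb2 sample lay above every Ctrl sample, and the samples nearest to each other were Rb2 replicate 1 and Ctrl replicate 1 in Rbbp4, and Rb2 replicate 1 and Ctrl replicate 3 in Rbbp7. The log2 fold change was 0.62 for Rbbp4 (SE 0.18, 1.54-fold, edgeR adjusted p = 0.093) and 0.61 for Rbbp7 (SE 0.16, 1.52-fold, edgeR adjusted p = 0.0745). Without Ctrl replicate 1 both passed the threshold, at 0.71 for Rbbp4 (edgeR adjusted p = 0.0294) and 0.46 for Rbbp7 (edgeR adjusted p = 0.0184). Without Ctrl replicate 3 Rbbp7 did, at 0.81 (edgeR adjusted p = 0.0179). These fits called more genes of every kind, 896 of 11901 without Ctrl replicate 1 and 644 of 12022 without Ctrl replicate 3, against 312 of 11551. With DESeq2, which called 418 of 11551 genes, Rbbp7 was called (log2 fold change 0.60, adjusted p = 0.0274). Ctrl replicate 3, whose place on the first component was nearest to the Rb2 samples, had the highest Rbbp7 of the Ctrl samples but the lowest Hdac2 and Rbbp4. Rbbp7 made up 86.7% ± 1.23 of the summed level of the pair per length in Rb2 and 86.3% ± 3.81 in Ctrl, so the balance of the pair differed by less than the spread between samples. The proteins of this pair are also close paralogs, and reads common to both genes could be split between them.

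None of the NuRD-specific subunits Mta1, Mta2 and Chd4 was called. Mta1, which bridges the deacetylases and the chaperones in NuRD, had 134, 142 and 140 CPM in Rb2 and 143, 151 and 141 CPM in Ctrl. Its coefficient of variation was 2.99% in Rb2 and 3.46% in Ctrl, near the 3.41% that counting alone would give at its mean count over the 6 samples. The groups overlapped in Mta1, with a log2 fold change of -0.062 (SE 0.089, edgeR adjusted p = 0.745). The sign of that small difference depended on the scaling, being 0.052 with library size only. Mta2, a paralog of Mta1 with the same role, had 45.4, 55.3 and 67.3 CPM in Rb2 and 52.1, 41.4 and 54.3 CPM in Ctrl. Mta2 values overlapped, with Rb2 replicate 3 the highest (log2 fold change 0.18, SE 0.17, edgeR adjusted p = 0.58). Chd4, the ATPase that slides nucleosomes in NuRD, had 41.6, 39.9 and 39.4 CPM in Rb2 and 66.5, 36.0 and 38.6 CPM in Ctrl. One sample decided its direction: the log2 fold change of Chd4 was -0.23 (SE 0.22, edgeR adjusted p = 0.599) with all samples and 0.13 without Ctrl replicate 1 (edgeR adjusted p = 0.522).

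Sin3a, the scaffold of the Sin3 complex, was the least abundant member by a wide margin. It had 14, 10 and 6 counts in the Rb2 samples and 33, 15 and 13 counts in the Ctrl samples, or 2.49, 1.73 and 1.10 CPM in Rb2 against 4.00, 2.71 and 2.27 CPM in Ctrl. The highest Rb2 sample lay between the lowest and the middle Ctrl sample, and the log2 fold change was -0.77 (SE 0.37, edgeR adjusted p = 0.281). All 10 members passed the filter on low counts. For Sin3a this was through 2 Rb2 and 3 Ctrl samples, while the other 9 passed in every sample. At its mean count over the 6 samples, counting alone would give Sin3a a coefficient of variation of 25.7%. In Rb2 39.1% was seen and in Ctrl 30.1%. Since the Rb2 counts were lower, counting alone would give more than 25.7% in Rb2 and less in Ctrl.

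**Figure D3:**
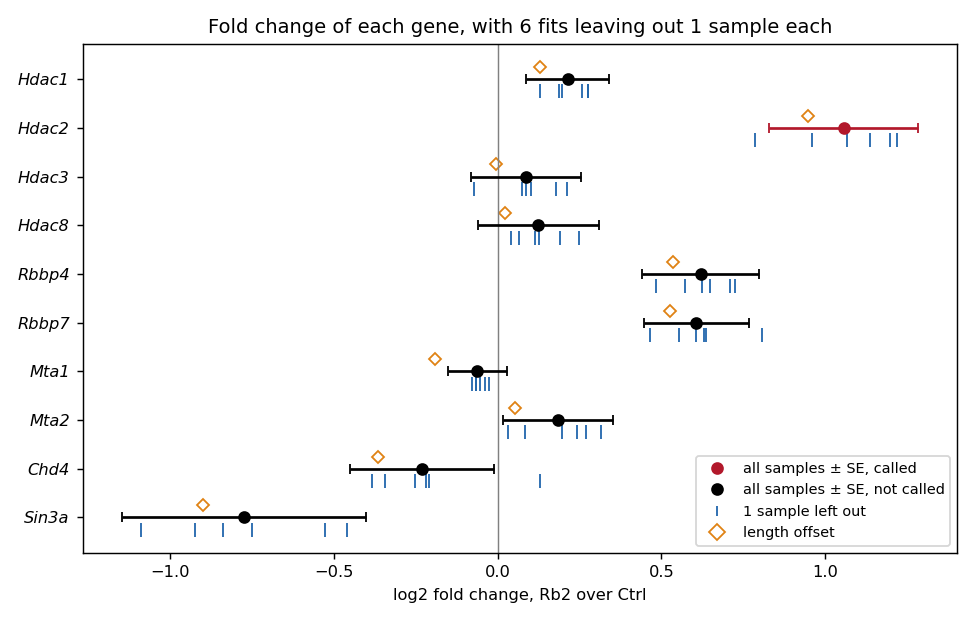
Log2 fold change of Rb2 over Ctrl for each gene with its standard error (circles, edgeR, 3 samples per group), the 6 fits that leave out 1 sample each (blue ticks) and the fit with a length offset (diamonds). Hdac1, Hdac2, Hdac8, Rbbp4, Rbbp7 and Mta2 stay above 0 and Mta1 and Sin3a below 0 in all of these fits, Chd4 crosses 0 in 1 of the 6, and Hdac3 crosses 0 in 1 of the 6 and with the length offset.

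Counted together, 1 of the 10 members was called, and it was higher in Rb2. Groups did not overlap in 4 members, all with Rb2 above Ctrl, where 15.0% of the 11551 genes tested had Rb2 wholly above Ctrl and 12.2% wholly below. The log2 fold change was above 0 in 7 of the 10 members and in 48.0% of all genes tested, and the median was 0.15 over the members and -0.016 over all genes. Nothing is read from these counts, because the members were chosen with this comparison in view. The median of the members moved with the scaling: it was 0.10 with upper-quartile factors, 0.27 with library size only and 0.038 with the length offset. The median of all genes was 0.096 with library size only.

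By level per length the order was similar in both groups. In Rb2, Rbbp7 at 72.4 CPM per kb led Mta1 at 47.1 and Hdac1 at 32.3 CPM per kb, each without overlap. Hdac3, Hdac2 and Mta2 followed with overlapping neighbours, then Rbbp4 at 11.1 CPM per kb, then Chd4 and Hdac8, which overlapped at 5.90 and 5.78 CPM per kb, and Sin3a came last at 0.38 CPM per kb. In Ctrl, Mta1 at 49.2 and Rbbp7 at 47.7 CPM per kb overlapped, Hdac3 overlapped Mta2, and Hdac2, Rbbp4 and Chd4 each overlapped the next in line, down to Hdac8, with Sin3a again last at 0.64 CPM per kb.

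At the transcript level, where new models carry names starting with ONT, 26 of the 27 transcripts of the members had a count and 10 passed the filter. None of the 10 was called with edgeR, as none of 16679 transcripts tested was (0.0%; DESeq2 called 348), and 3 of the 10 had an unadjusted p under 0.05, against 2304 (13.8%) of all transcripts. These 3 were Hdac2-201, Rbbp4-201 and Rbbp7-201. Hdac1, Hdac2 and Rbbp4 each had a single transcript row, so that their gene and transcript counts are the same numbers. Hdac2-201 had a log2 fold change of 1.05 (SE 0.25, edgeR adjusted p = 0.198 over transcripts), Rbbp4-201 of 0.61 and Rbbp7-201 of 0.61. Rbbp7-201 took 99.9% ± 0.07 of the gene's counts in Rb2 and 99.4% ± 0.35 in Ctrl. The short model ONT.18975.6 of Rbbp7 had no count in Rb2 and 6, 3 and 2 counts in Ctrl. With 11 counts in all it did not pass the filter and was not tested. Mta1-201, Chd4-201 and Hdac8-201 likewise carried most counts of their genes, with Hdac8-201 lowest at 95.2% ± 4.12 in Rb2 and 92.6% ± 0.87 in Ctrl. Sin3a was split between both of its annotated transcripts, Sin3a-201 with 12, 2 and 3 counts in Rb2 and 15, 9 and 7 counts in Ctrl, and Sin3a-202 with 2, 8 and 3 counts in Rb2 and 18, 6 and 6 counts in Ctrl. Which Sin3a transcript had more counts varied among the samples of both groups.

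For Hdac3 and Mta2 nearly all counts were on new transcript models rather than on annotated transcripts. The annotated Mta2-201 had no count in any sample, and the annotated Hdac3-202 had 1 count in all, in Ctrl replicate 1. In Hdac3 the model ONT.8444.2 had 210, 250 and 235 counts in the Rb2 samples and 189, 248 and 249 counts in the Ctrl samples. ONT.8444.1 had 42, 4 and 0 counts in Rb2 and 0, 0 and 24 counts in Ctrl, and ONT.8444.3 had no count in Rb2 and 67, 9 and 0 counts in Ctrl. Counts of ONT.8444.1 thus came mainly from Rb2 replicate 1 and Ctrl replicate 3, and those of ONT.8444.3 mainly from Ctrl replicate 1. Neither of these 2 minor models passed the filter. The 3 models have lengths of 1889, 1909 and 1913 bases. Mta2 was the only member with 2 transcripts past the filter and so the only one with a test of transcript shares. Its main model ONT.893.3 took 95.8% ± 0.59 of the gene's counts in Rb2 and 92.6% ± 3.42 in Ctrl, and ONT.893.5 took 3.02% ± 1.43 in Rb2 and 6.20% ± 2.72 in Ctrl (SD, n = 3 each). The usage test of edgeR did not call Mta2 (unadjusted p = 0.0858, adjusted p = 1), while it called 14 of 3361 genes (0.417%).

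**Figure D4:**
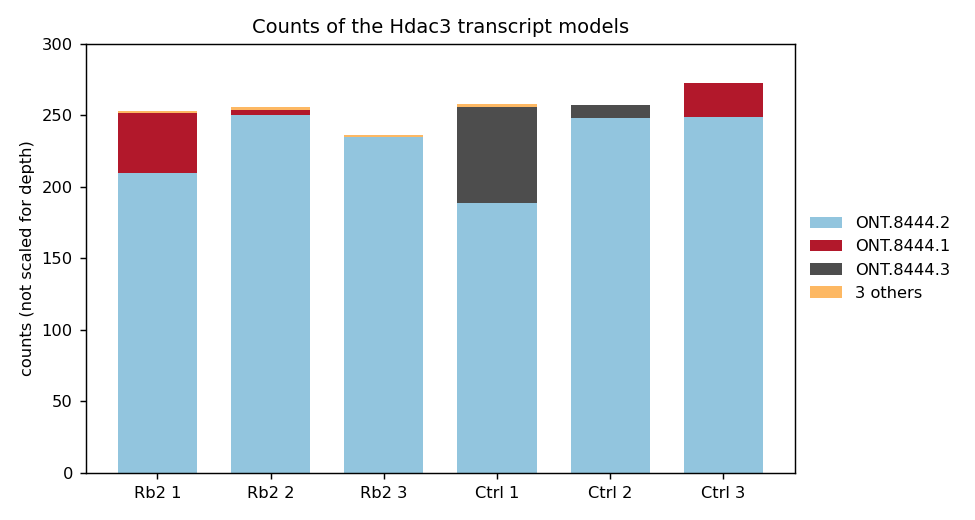
Counts of the Hdac3 transcript models in each Rb2 and Ctrl sample, stacked and not scaled for depth. ONT.8444.1 (red) shows in Rb2 replicate 1 and Ctrl replicate 3, and ONT.8444.3 (dark grey) mainly in Ctrl replicate 1.

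Genes for the remaining subunits of the same complexes, and the other zinc-dependent deacetylases, were taken from 7 lists of 56 symbols written with earlier results known. They matched 57 gene rows, of which 41 were tested, 2 were called higher, none was called lower and 39 were not called, with a median log2 fold change of -0.20. The 2 called higher are 4.88% of the 41, against 1.9% of all genes tested. Among the 41, 5 (12.2%) had Rb2 wholly above Ctrl, against 15.0% of all genes, and 5 (12.2%) wholly below, the same share as among all genes. Both called genes belong to complexes that share Rbbp4 or Rbbp7 with the corepressors. Eed, the subunit of Polycomb complex PRC2 that reads the methyl mark PRC2 deposits, averaged 19.1 ± 2.41 CPM in Rb2 and 11.3 ± 0.53 CPM in Ctrl (SD, n = 3 each), with no overlap between groups and a log2 fold change of 0.76 (SE 0.17, adjusted p = 0.048 in edgeR). Hat1, the acetyltransferase that acts on new histone H4 together with Rbbp7, averaged 29.9 ± 1.46 CPM in Rb2 and 19.3 ± 1.47 CPM in Ctrl (log2 fold change 0.64, SE 0.14, edgeR adjusted p = 0.0482). Eed lost the call in 10 and Hat1 in 11 of 17 alternatives, while both kept a log2 fold change of at least 0.58 in all 17. Both lost it without Rb2 replicate 1, 2 or 3 and without Ctrl replicate 2 (edgeR adjusted p from 0.158 to 0.212 for Eed and from 0.151 to 0.204 for Hat1), and Hat1 also without Ctrl replicate 3 (edgeR adjusted p = 0.0537). Both also lost it with RLE and upper-quartile factors, the CPM filter, limma-voom, the length offset and the replicate block. Of the 9 tested genes in that list 5 had a log2 fold change above 0 and 4 below, with a median of 0.46.

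The other 6 lists had no called gene among 32 tested with edgeR, nor with DESeq2. An unadjusted edgeR p under 0.05 was found in 2 of the 32, Sap18 with a lower and Ing2 with a higher mean in Rb2. Both are from the Sin3 list, and Ing2 is named after its values were seen. The share of all genes tested under that p was not computed, so nothing is read from these 2. Ctrl replicate 1 decided many directions in the 6 lists: the medians of 4 of these lists, below 0 with all samples, were above 0 without it. Of 6 other NuRD subunits 1 was above and 5 were below 0 (median -0.24), but without Ctrl replicate 1 there were 5 above and 1 below (median 0.13). Gatad2a, which links Chd4 to the deacetylase core of NuRD, had 156, 136 and 142 CPM in Rb2 and 227, 139 and 131 CPM in Ctrl, so that only Ctrl replicate 1 stood apart. Its log2 fold change was -0.20 with all samples and 0.11 without that one.

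Of 11 other Sin3 complex subunits 4 were above and 7 below 0 (median -0.15), against 6 above and 5 below without Ctrl replicate 1 (median 0.090). Sap18 had 386 ± 20.1 CPM in Rb2 and 468 ± 30.9 CPM in Ctrl (log2 fold change -0.28, SE 0.09, edgeR adjusted p = 0.119), and its log2 fold change without Ctrl replicate 1 was -0.21. The CoREST list, with the histone demethylase Kdm1a at 45.1 ± 7.01 CPM in Rb2 and 54.2 ± 6.81 CPM in Ctrl, had a median of -0.081 over 4 genes. That median was 0.033 with library size only, 0.054 without Ctrl replicate 1 and 0.0081 without Rb2 replicate 2. The MiDAC list had a median of -0.27 over 3 genes, but 0.32 without Ctrl replicate 1 and 0.085 without Rb2 replicate 2. Its gene Dnttip1 had 3.56, 1.21 and 3.86 CPM in Rb2 and 10.6, 3.07 and 1.57 CPM in Ctrl, with a log2 fold change of -0.89 with all samples and 0.32 without Ctrl replicate 1.

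In the class II and IV list the 4 tested genes, Hdac5, Hdac6, Hdac7 and Hdac10, are all of class II. The class IV gene Hdac11 was not tested, with no count in Rb2 and 1, 1 and 0 counts in Ctrl. All 4 had a log2 fold change below 0, with a median of -0.27 and Hdac6 at only -0.021. Yet 1 of the 4 was above 0 with library size only and without Ctrl replicate 1, 2 or 3. Hdac7, taken because its mean over the 6 samples was the highest of the list, at 26.04 CPM against 26.00 CPM for Hdac6, had 19.9, 25.1 and 26.9 CPM in Rb2 and 39.4, 19.9 and 25.0 CPM in Ctrl. Its log2 fold change was -0.24 with all samples and 0.11 without Ctrl replicate 1. The NCoR and SMRT list, with Gps2 at 26.8 ± 1.35 CPM in Rb2 and 32.2 ± 3.07 CPM in Ctrl, had a median of 0.24 over 4 genes and 0.74 without Ctrl replicate 1. In that fit 2 of the 4, Ncor1 (log2 fold change 1.42, edgeR adjusted p = 0.0349) and Tbl1x (1.17, adjusted p = 0.0184), were called higher in Rb2. So was Ezh2 among the genes that share Rbbp4 or Rbbp7 (1.00, edgeR adjusted p = 0.00542). The same fit called 605 of 11901 genes higher, against 219 of 11551 with all samples. Ncor1, Tbl1x and Ezh2 are named after their values were seen.

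**Figure D5:**
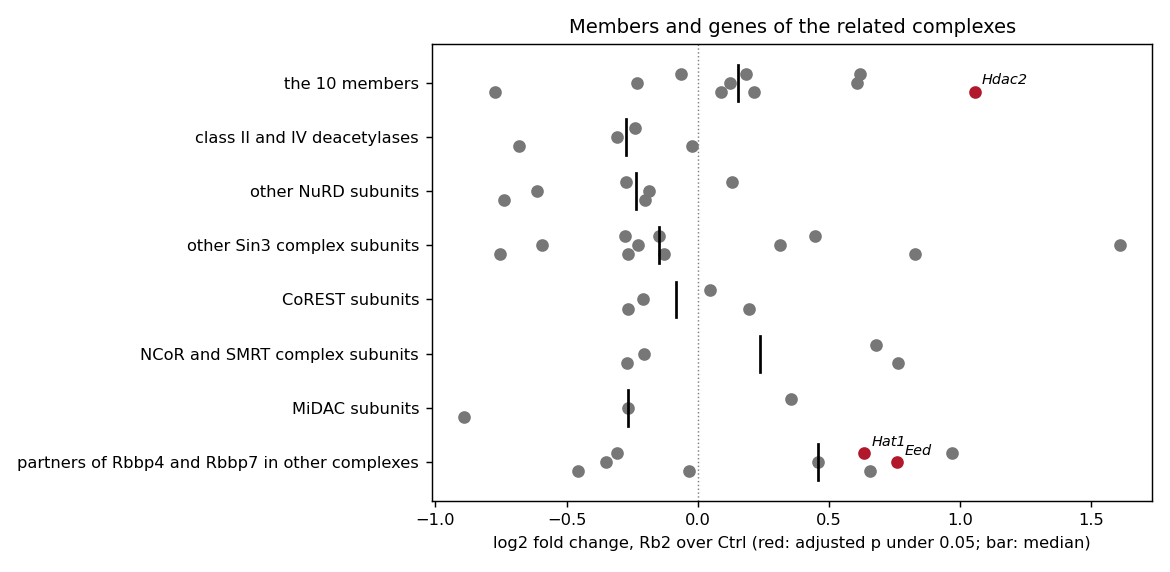
Log2 fold change of Rb2 over Ctrl for the 10 members and for the tested genes of 7 related lists, 1 point per gene, with a bar at the median. Red points passed an edgeR adjusted p under 0.05, which holds for Hdac2, Eed and Hat1.

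The 5 genes whose profile over the 6 samples came closest to that of Hdac2, by the root-mean-square difference of centred log2 CPM among 6616 genes with a mean of at least 5 CPM, were LOC361346 at 0.13, Ssx2ip at 0.21, Scaf11 at 0.21, Sh3glb1 at 0.22 and Mthfd2l at 0.24. The profiles include the difference between the groups, so genes near Hdac2 are higher in Rb2 by the way they were picked. All 5 had every Rb2 sample above every Ctrl sample, and only Sh3glb1 was called (log2 fold change 0.72, edgeR adjusted p = 0.048). Neither that call nor the ranks below are separate support for the difference in Hdac2. Among the other members Rbbp4 came nearest to Hdac2, at rank 108 with a difference of 0.34, followed by Rbbp7 at rank 764 and Mta2 at rank 900. Hdac1, the paralog, stood at rank 1812 and Hdac3 at rank 3302.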

How the data were processed

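RNA of 6 H9c2 samples was sequenced, 3 Rb2 and 3 Ctrl. The authors deposited whole-number counts per gene and per transcript with lengths, and CPM values, which equal the deposited count over the column total with no length scaling (largest difference 4.9e-11). Per the submitters' processing notes, tools included HISAT2 and DESeq2, and a build was mm10 (mouse); the known genes carry rat identifiers, so the build stays unsettled and no coordinates are taken from the files. No source used here gives the counter or annotation. New transcript models have identifiers starting with ONT, and the labels' protocols describe a short-read kit. Of the per-sample columns, 18 in each table could not be matched to a sample and were left out.

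The tests on counts used edgeR 4.0.16 with R 4.3.3 (TMM, filterByExpr on group, robust quasi-likelihood fit, Benjamini-Hochberg over all features, threshold 0.05), transcript shares with diffSpliceDGE. Each standard error is the fold change over the root of F. On simulated counts the gene fit, run on 11209 genes, called 38% of 100 altered 2-fold, 89% of 100 altered 4-fold and 7 unaltered ones; among 15682 simulated transcripts the fit recovered 61.5% of 200 raised 4-fold, with 19 unchanged called, and the usage test 24% of 200 among 3096 genes, with 10 unchanged called. Alternatives were other scalings, filters, DESeq2 1.42.0, limma 3.58.1 (voom, and log2 of the deposited CPM plus 1 or 0.1), a loess length offset (span 0.5), the replicate block and leaving out each sample. Members and lists were chosen with earlier results of these data known. Named genes are all members, of each list up to 4 called genes or else the one with the highest CPM, and the 5 profiles nearest to Hdac2. Of 56 list symbols, Rcor2 matched no row, Mideas matched by an older symbol, and Brms1l and Rcor1 matched 2 rows each.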

Additional observations from a re-analysis of the deposited data

How the results depend on the processing

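Across 17 alternatives and 12 single genes (the 10 members, Eed and Hat1), 159 of 204 values kept their direction and side of the threshold, 31 lost a call, 8 gained one and 6 changed sign. Hdac2 kept its direction in all 17 and its call in 7. The sign changes were Hdac3 with the length offset (-0.00505) and without Ctrl replicate 1 (-0.071; 1 sample left out gave -0.071 to 0.21), Chd4 without Ctrl replicate 1 (0.13; -0.38 to 0.13), and Mta1 with library size only (0.0521), log2 CPM plus 1 (0.0511) and log2 CPM plus 0.1 (0.0515), all not called.

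The number of members called was 0 with upper-quartile factors, limma-voom, the length offset, the replicate block and a threshold of 0.01, 2 with no filter, DESeq2 and log2 CPM plus 0.1 (Hdac2 and Rbbp7), and 3 with log2 CPM plus 1 (also Rbbp4). Leaving out 1 sample gave 0 to 2. The settings with 2 or 3 members called also called other numbers of genes over all, against 312 of 11551 in the main fit. These were 418 of 11551 with DESeq2, 536 of 22889 with no filter, and 601 and 559 of 11551 on log2 CPM plus 1 and 0.1. Genes called numbered 543 with library size only (463 higher and 80 lower, 85.3% higher against 70.2%), 536 with no filter, 601 and 559 on log2 CPM plus 1 and 0.1, 177 with the length offset (94 and 83, 53.1% higher), 17 at the stricter threshold, and 3 to 896 with 1 sample left out; upper-quartile factors gave 135 higher and 92 lower (59.5%). DESeq2 called 348 transcripts and no filter 27; leaving out 1 sample gave 0 to 41. Transcript usage was called in 17 to 31 genes with 1 sample left out. The difference of the Hdac2 share, 9.1 percentage points, ran from 5.55 to 11.5 with 1 sample left out and was 9.31 without division by length. The causes of these shifts were not tested.

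The replicate numbers share no stated origin, and same-numbered samples did not deviate together (correlations of -0.067, -0.061 and -0.007; no sample correlated best with its own number). With the replicate block, 33 genes (12 higher and 21 lower) and 5 usage genes were called and the log2 fold change of Hdac2 was 1.02 (edgeR adjusted p = 0.0909). Depth limits Sin3a most, with 6 to 33 counts per sample.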
